A study of Homo sapiens with 24 samples.

Results

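The loss of ABHD6 was examined in Huh7 cells after 24 h of palmitic acid. Huh7 is an established human hepatoma line, and palmitic acid is a saturated fatty acid that loads liver cells with lipid. The comparison set 4 ABHD6 knockout (KO) libraries against 4 wild type (WT) libraries, 8 of the 24 libraries in the series, and covered all genes. Both groups had been given 800 µM palmitic acid in the same serum-containing medium for 24 h before RNA was taken, and they differed in genotype. The other 16 libraries were the same 2 genotypes in basal medium (0 h) and at 48 h of palmitic acid, again 4 libraries a group, and they serve here only as reference points. The labels do not say how the knockout was made, how many KO clones there were, or whether the libraries within a group are separate cultures. The p-values therefore measure the spread between these libraries, and a difference between clones and a difference from the loss of ABHD6 cannot be told apart. No library of 24 h in culture without palmitic acid was analysed here, so the genotype difference at 24 h cannot be split into a part that needs the acid and a part that does not.

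ABHD6 is a membrane-bound serine hydrolase of the alpha/beta hydrolase fold family. It cleaves monoacylglycerols, among them the endocannabinoid 2-arachidonoylglycerol, and also acts on some lysophospholipids and on bis(monoacylglycero)phosphate. The monoacylglycerols it degrades come from the breakdown of triglycerides, diacylglycerols and phospholipids, and the fatty acids it frees can be burned in mitochondria or built back into triglyceride. Palmitic acid itself is known to load hepatoma cells with saturated phospholipid and to stress their endoplasmic reticulum (ER).

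Expression was given as FPKM, the number of fragments on a gene scaled to its length and to the size of the library. Over the 8 libraries the summed FPKM was 890585 to 995833. The smallest steps of the values placed the fragments behind them at 558048 to 632362 per library, a shallow depth. Pearson's r between libraries of one group, across 3341 genes averaging 20 FPKM or more, was 0.821 to 0.864, and r between a WT and a KO library was 0.823 to 0.867, so a KO library was about as like a WT library as another KO library. Genes are not independent replicates in these correlations. Rows annotated as antisense genes held 47.0% ± 1.6 (SD, n = 4) of the summed FPKM in WT and 47.1% ± 0.64 in KO, and of 1375 antisense rows paired with an opposite-strand gene 893 (65.0%) were higher than that gene. MT-ND6, the 1 mitochondrial protein gene on the minus strand, was 37320 FPKM in WT, above the means of the other 12, and ribosomal protein genes held 1.21% of the summed FPKM in WT. The libraries came from a directional kit, but no source used here states which strand, if any, the authors counted. Were it the opposite of the kit's, every row would hold reads of the other strand, rows with no overlapping gene such as SCAMP3 included, and the row AC092115.2 would hold reads of NQO1. Every value below is therefore that of a row as deposited, and the strand its reads came from is uncertain. Exact two-sided permutation tests of 7 library values gave p of 0.229 to 1, but after adjustment over the 7 a difference in 1 value alone could not have passed (the smallest p before adjustment is 0.0286). Hepatocyte genes were present, with AFP, the fetal counterpart of albumin, at 184 ± 57.8 FPKM in WT and 178 ± 26.1 in KO (SD, n = 4), while CYP2E1 and CYP7A1 were listed at 0. Of the markers of other liver cells 11 of 18 immune, 11 of 14 endothelial and 5 of 14 stellate genes were listed at 0 in all 8 libraries, among them PTPRC of leukocytes, VWF of endothelium and COL1A1 of stellate cells. Others were present: LYZ, the lysozyme gene on the immune list, was 133 to 191 FPKM in WT and 144 to 193 in KO, and CD68 was 0 to 18.2 and 2.95 to 17.7. The summed immune list was 166 to 199 FPKM in WT and 156 to 222 in KO. Of 12 biliary and progenitor genes 2 were at 0 throughout, and their sum was 305 to 414 FPKM in WT and 286 to 397 in KO, with CD24 at 260.3 to 348 and 210.3 to 329.9. The part of such genes in the results was not tested.

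ABHD6 (ENSG00000163686.14, chr3:58237506-58295693, GRCh38) was too low to check the labels. It was above 0 in 1 of 4 WT libraries (0.786 FPKM) and in 1 of 4 KO libraries (0.759 FPKM) at 24 h, each value worth about 1 or 2 fragments, and listed at 0 in the other 6. At 48 h it was above 0 in 1 of 4 WT and 3 of 4 KO libraries, at most 0.846 FPKM. Its mean over all 24 libraries, 0.239 FPKM, lay below the floor of 0.5 FPKM used for testing, and without that floor its limma adjusted p was 1. So few fragments do not show whether the deletion is present.

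At 24 h 2 of the 17252 genes tested differed between KO and WT, 1 lower and 1 higher in KO, which is 0.0116% of the genes tested. Values were compared as log2(FPKM + 0.5) with limma, in 1 fit over all 24 libraries, and the call was a p under 0.05 after Benjamini-Hochberg adjustment. Fold changes on this scale understate the change of low genes. The gene that fell was AC092115.2, an antisense-annotated transcript within the gene of the antioxidant enzyme NQO1, and the gene called higher was SCAMP3, which encodes a membrane protein of endosomes and the trans-Golgi network and was listed at 0 in 3 of 4 WT libraries. At an unadjusted p under 0.05 there were 892 genes (5.17%), close to the share that this threshold lets through by chance. The median difference over all genes tested was 0.

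**Figure D1:**
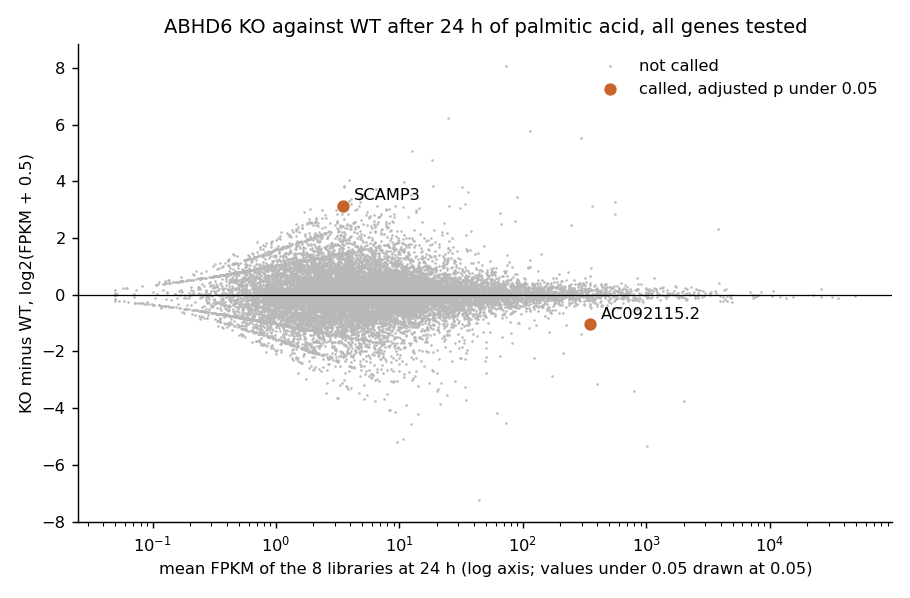
Each point is 1 of the 17252 genes tested, with the mean FPKM of the 8 libraries at 24 h on a log axis against the KO minus WT difference on the log2(FPKM + 0.5) scale. The 2 called genes are AC092115.2 at -1.03 and SCAMP3 at 3.15, and the cloud narrows as the level rises.

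AC092115.2 (chr16:69709874-69710583, plus strand, 1 of the rows GENCODE types as antisense) lies inside NQO1 (chr16:69706996-69726951, minus strand). Its values were 562, 503, 424 and 379 FPKM in WT and 227, 262, 202 and 215 in KO. All 4 KO libraries lay below all 4 WT libraries. It fell by 1.03 ± 0.16 (SE) on the log2 scale (limma adjusted p = 0.034). NQO1 reduces quinones and is a classical target of the transcription factor NRF2. Its own row was 26.7, 11.5, 19.96 and 26.96 FPKM in WT and 11.9, 5.19, 8.58 and 7.798 in KO, with KO replicate 0 a little above WT replicate 1 and the other 3 WT libraries above all KO libraries. The NQO1 difference was -1.28 ± 0.40 (SE) and did not pass the test (limma adjusted p = 0.71).

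The group means of the pair had the same order at the other times. At 0 h AC092115.2 was 702, 539.7, 521 and 454 FPKM in WT and 375, 265, 288 and 319 in KO, again with no overlap, a fall of 0.82 on the log2 scale that passed the test (limma adjusted p = 0.046). NQO1 at 0 h was 20.47, 9.85, 10.6 and 10.5 FPKM in WT and 2.99, 1.59, 3.07 and 3.004 in KO and fell by 2.05 (adjusted p = 0.037). Both rows of the locus were called lower in KO in basal medium. At 48 h AC092115.2 was 308, 458, 391 and 325 FPKM in WT and 203, 186, 256 and 241 in KO, a difference of -0.73 (adjusted p = 0.12), and NQO1 differed by -0.59 (adjusted p = 0.9). A change of the AC092115.2 difference between 24 h and 0 h or 48 h was not called (limma adjusted p = 0.94 and 0.97). Of the 30 NRF2 genes tested, NQO1 among them, 13 were above and 17 below zero difference, none was called, and the median was -0.07 against 0 over all genes. The ferritin light chain FTL was 195 ± 9.35 FPKM in WT and 170.0 ± 47.2 in KO, with a difference of -0.24 (95% interval -0.63 to 0.15).

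SCAMP3 (chr1:155255979-155262430, minus strand, with no exon on the opposite strand) was 0, 0, 0 and 2.28 FPKM in WT and 7.24, 4.74, 7.43 and 6.11 in KO. It was listed at 0 in WT replicates 0, 1 and 2, and the KO libraries all lay above the WT library that had a value. On the listed values the difference was 3.15 ± 0.52 (SE; limma adjusted p = 0.034), and at most 10.6 fragments stood behind any 1 of these values. At 0 h SCAMP3 was 10.8, 17.2, 5.13 and 15.7 FPKM in WT and 6.93, 8.599, 15.3 and 5.46 in KO, and at 48 h 7.49, 6.03, 4.81 and 4.11 FPKM in WT and 8.33, 6.61, 6.14 and 3.44 in KO, with the genotypes overlapping at both times (differences of -0.38 and 0.09). Its KO values at 24 h were within the range of both genotypes at the other times, and it was above 3 FPKM in all libraries outside WT at 24 h. A value of 0 in this table can be a failed estimate: MT-CO1, a subunit of complex IV that every cell uses, had group means of 410.5 (WT) and 421 FPKM (KO) in basal medium, while each of the 8 libraries at 24 h lists it at 0 (chosen after its values were seen). The SCAMP3 call rests on its listed 0s, and whether they stand for low expression was not tested. The same holds for every listed 0 given below.

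Both calls lay near the threshold and depended on single libraries. AC092115.2 remained called without WT replicate 3 or KO replicate 1 and was lost without each of the other 6 libraries in turn (limma adjusted p 0.058 to 0.13), while its difference stayed between -1.13 and -0.94. SCAMP3 remained called without WT replicate 3 and was lost without each of the other 7 (adjusted p 0.056 to 0.13), with a difference of 2.94 to 3.76. Both were lost with the replicate number as a block (adjusted p = 0.067 for AC092115.2 and 0.092 for SCAMP3), although the numbers do not pair the libraries. AC092115.2 was also lost in a fit with no variance trend (adjusted p = 0.46), and SCAMP3 at a pseudocount of 1 (adjusted p = 0.056). A fit of only the 8 libraries called 13 genes, neither of these among them.

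**Figure D2:**
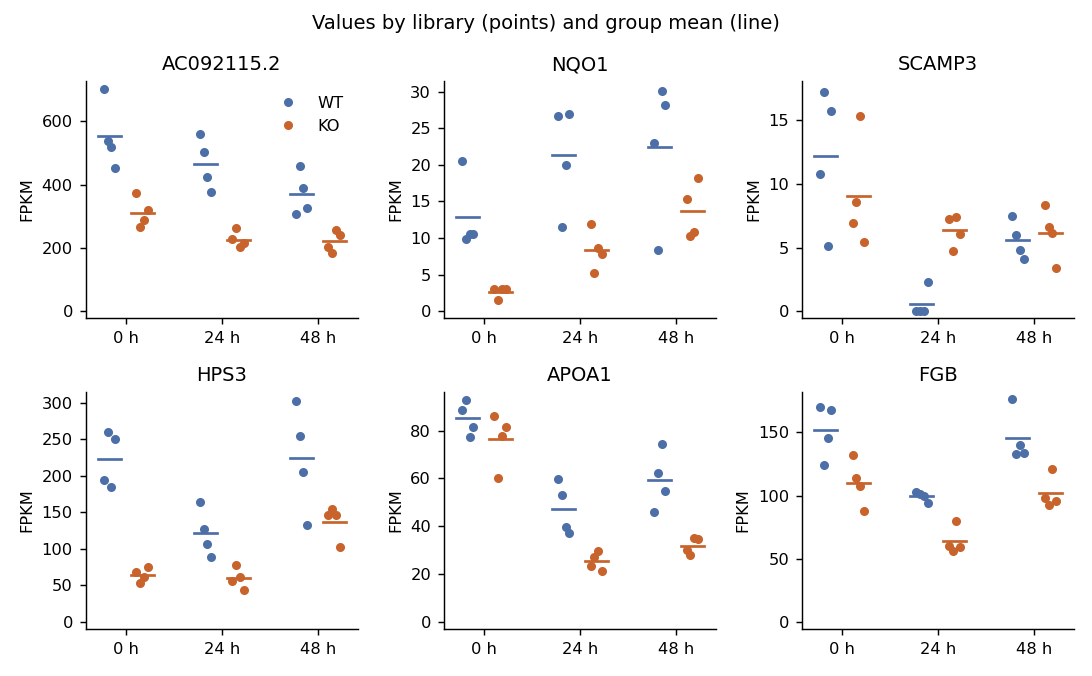
FPKM of 6 genes in all 24 libraries, WT in blue and KO in orange, with 1 point a library and a line at the group mean. The KO means of AC092115.2, NQO1, HPS3 and FGB were lower at all 3 times, APOA1 overlapped at 0 h and separated at 24 h and 48 h, and SCAMP3 was listed at 0 in 3 of 4 WT libraries at 24 h.

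The genes next in rank are given as values, since none of them passed the test. They were taken by the smallest p among genes with a named, non-antisense symbol and at least 5 FPKM in the higher group. Of the 12 (SCAMP3 included), 9 were lower and 3 higher in KO. Liver secretory genes made up 3 of them, but the share of such genes among all genes at this level was not counted. An enrichment was not tested. APOA1, the main protein of high-density lipoprotein, was 59.7, 52.98, 39.6 and 37.3 FPKM in WT and 23.3, 27.3, 29.6 and 21.2 in KO. All KO values were under the lowest WT value, and the difference was -0.88 ± 0.19 (SE; limma adjusted p = 0.28). The opposite-strand row APOA1-AS, which overlaps it, was 73.8 ± 36.5 FPKM in WT and 65.6 ± 31.3 in KO (SD, n = 4). At 0 h APOA1 had differed by -0.16, and at 48 h by -0.87 (adjusted p = 0.12), with 46.1, 62.2, 74.4 and 54.6 FPKM in WT and 30.002, 27.8, 34.9 and 34.7 in KO. The genotypes overlapped in basal medium and were apart at both palmitic acid times, but the change of the difference from 0 h to 24 h did not pass the test (adjusted p = 0.89).

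FGB, the beta chain of fibrinogen, was 103, 101, 100.03 and 93.97 FPKM in WT and 59.8, 56.3, 79.6 and 59.5 in KO. Its WT libraries were close together and all above KO, with a difference of -0.65 ± 0.16 (limma adjusted p = 0.43), and it differed by -0.46 at 0 h and -0.51 at 48 h. CPB2, a plasma carboxypeptidase that slows the lysis of fibrin clots, was 3.27, 5.73, 11.6 and 3.98 FPKM in WT and 0, 1.07, 2.03 and 1.05 in KO, low in both genotypes, with no overlap and a difference of -2.17 (adjusted p = 0.47).

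HPS3, a subunit of a complex that builds lysosome-related organelles, was 164, 127, 107 and 89.3 FPKM in WT and 55.6, 78.5, 61.2 and 44.4 in KO. Every KO library was below every WT library, and the difference was -1.01 ± 0.24 (limma adjusted p = 0.34). It had been called at 0 h, where it fell by 1.77 (adjusted p = 7.47e-04), and differed by -0.66 at 48 h. HPS3 overlaps in part the gene of the copper-carrying plasma protein ceruloplasmin, CP, on the opposite strand. Since the strand counted is unknown, it is uncertain which gene's reads each of the 2 rows holds where they overlap. The CP row was 122, 103, 83.3 and 94.3 FPKM in WT and 81.05, 95.9, 108 and 95.7 in KO at 24 h. Its groups overlapped, with a difference of -0.08 (95% interval -0.48 to 0.32).

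Most of the other leading genes were low and rested on few fragments. APBB1, an adaptor that binds the amyloid precursor protein, was 8.97, 5.13, 8.35 and 2.79 FPKM in WT and listed at 0 in all 4 KO libraries. It was also listed at 0 in 2 WT libraries at 0 h, and with a group at 0 no fold is given (adjusted p = 0.34). SPC24, a kinetochore protein, was 6.44, 19.95, 5.899 and 8.12 FPKM in WT and 2.99, 0, 0 and 0 in KO, above 0 in 1 KO library. OBSL1, a cytoskeletal adaptor, was 28.5, 27.1, 43.8 and 19.9 FPKM in WT and 8.79, 2.31, 7.22 and 13.1 in KO, apart in the 2 groups, with a difference of -2.01 ± 0.47 (adjusted p = 0.34). DRAM2, a lysosomal membrane protein, was 16.7, 9.44, 8.85 and 8.902 FPKM in WT and 3.45, 0.97, 3.01 and 3.05 in KO, also without overlap, with -1.92 ± 0.50 (adjusted p = 0.47). The pseudogene RSL24D1P6 was 9.45, 18.7, 48.1 and 8.76 in WT and listed at 0 in KO. The exons of SPC24, OBSL1 and DRAM2 overlap rows on the opposite strand, so their values are uncertain. This also applies to list members named below, among them CIDEB, ETFDH, LPCAT3, ORMDL2, SOD2, FTH1, ATG7, SQSTM1 and ERBB2.

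On the higher side, SLC26A2, a sulfate transporter that overlaps TIGD6 on the opposite strand, was 0.407, 0.349, 0.362 and 0.186 FPKM in WT and 9.46, 4.51, 12.7 and 4.35 in KO, with a difference of 3.19 ± 0.66 (limma adjusted p = 0.17). All WT libraries were under 0.5 FPKM and all KO libraries above 4. At 0 h it was 6.62, 10.6, 5.23 and 5.33 FPKM in WT and 0.295, 0.457, 5.77 and 6.07 in KO, with 2 KO libraries under 0.5 FPKM and no WT library there. BBIP1, a subunit of the ciliary BBSome, was the best measured gene of the group, with at least 1303 fragments in each library. It was 291, 255, 278 and 278 FPKM in WT and 374, 370.2, 362 and 390.4 in KO, a difference of 0.44 ± 0.11 with no overlap (adjusted p = 0.47). Its neighbour on the other strand, PDCD4, was 83.5 ± 11.1 FPKM in WT and 101 ± 5.06 in KO, and the antisense row AL158163.2 was 2.67, 4.58, 0 and 0 FPKM in WT and 10.8, 7.52, 5.25 and 19.1 in KO. At 0 h BBIP1 had the opposite sign (-0.43).

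These 13 genes, the 12 and AC092115.2, had the same sign of difference at 0 h as at 24 h in 8 cases and at 48 h in 9. At 0 h 2 of them were called, AC092115.2 and HPS3, and at 48 h none. The WT and KO libraries of the 3 times are different libraries, so these values are not shared.

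The number of genes whose 4 KO values all lay on one side of the 4 WT values gives a second view that needs no variance model. There were 275 such genes with KO above (1.59% of the genes tested) and 228 with KO below (1.32%). With no ties, random labels put all 4 KO values on one side at a rate of 0.0286, both sides together. The 2 shares together were close to this rate. Among the 561 genes of the 25 lists described here, 6 had KO above (1.07%) and 16 KO below (2.85%), none was called, and 35 reached an unadjusted p under 0.05 (6.24% against 5.17% of all genes), 14 higher and 21 lower. The list median was below zero for 17 lists and above for 8. These medians depended on single libraries: leaving out 1 of the 8 in turn changed the sign of 10 of 25 medians at least once, and changed the sign or moved the value by over 1.5 times for 20. The 5 others were the lists of acute phase, lipoprotein, NF-kB and chemokine, interferon response and immediate early genes. Of these the interferon response median still changed sign with the processing (-0.11 to 0.77 over all alternative fits).

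How large a difference could have passed unseen depends on the level. The median distance from the estimate to either end of its 95% interval was 1.71 on the log2 scale for the 9155 genes at 0.5 to 5 FPKM, 1.29 for 4756 genes at 5 to 20 FPKM, 0.71 for 2292 genes at 20 to 100 FPKM and 0.38 for 1049 genes at 100 FPKM or more. Differences of 2-fold and under were therefore within the interval of most genes under 20 FPKM. A call needed a far smaller p than the 95% interval stands for, so differences wider than these distances could also go uncalled. HPS3 (-1.01) and APOA1 (-0.88), both above 20 FPKM in every 24 h library, were not called. At any level a missing call does not show that KO and WT are alike. Below, a level without library values is the mean ± SD of 4 libraries, and a bracket gives the log2 difference with its SE (after ±) or its 95% interval.

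The acute phase list of liver plasma proteins leaned most to one side among the lists described. It did not separate proteins that rise in the acute phase from those that fall, such as transferrin and fetuin. Of 15 members tested 14 were below zero difference and 1 above, none was called, and the median was -0.59 against 0 over all genes. Transferrin (TF), the iron carrier of plasma, was 163, 118, 138 and 131 FPKM in WT and 90.96, 99.5, 88.7 and 84.8 in KO. The 2 groups did not overlap, and the difference was -0.59 ± 0.16 (SE; limma adjusted p = 0.47). Complement C3 was 42.9, 42.5, 29.3 and 48.1 FPKM in WT and 5.698, 9.53, 35.5 and 10.4 in KO, where KO replicate 2 lay among the WT values and the other 3 KO libraries far below (-1.70 ± 0.57, adjusted p = 0.79). SERPINA1, the inhibitor of neutrophil elastase, was 353, 294, 293 and 265 FPKM in WT and 203, 281, 237 and 210.2 in KO, with KO replicate 1 inside the WT range (-0.38 ± 0.13, adjusted p = 0.84). The fibrinogen alpha chain FGA, at 12.7, 10.5, 18.53 and 19.9 FPKM in WT and 5.12, 11.05, 10.8 and 5.15 in KO, differed by -0.94 (adjusted p = 0.74), while the gamma chain FGG, at 39.5 ± 5.47 FPKM in WT and 34.8 ± 4.89 in KO, differed by -0.18. The 3 fibrinogen chains assemble into one protein, and the intervals of the alpha chain (-1.57 to -0.32), the beta chain (-0.98 to -0.32) and the gamma chain (-0.78 to 0.42) overlapped.

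The protease inhibitor A2M was the exception, at 29.6, 47.04, 26.3 and 33.6 FPKM in WT and 39.9, 40.5, 43.01 and 51.7 in KO and 0.38 ± 0.22 (adjusted p = 0.94). Fetuin (AHSG) differed by -0.34 and orosomucoid ORM1 by -0.48, both with intervals that include zero (-1.00 to 0.32 and -1.85 to 0.90). ORM1 and ORM2 are near-identical copies whose reads can be split between them. Haptoglobin (HP) and ITIH3 were above 0 in 2 of 4 libraries or fewer of each genotype. SERPINA3 and C4A were listed at 0 in all 4 KO libraries and above 0 in 1 WT library each, and without these 2 the list median was -0.48. The median of the list was -0.19 at 0 h, with 9 members below zero, and -0.51 at 48 h, with 13 below zero. The list was described with this lean in view, and it carries no test of its own.

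**Figure D3:**
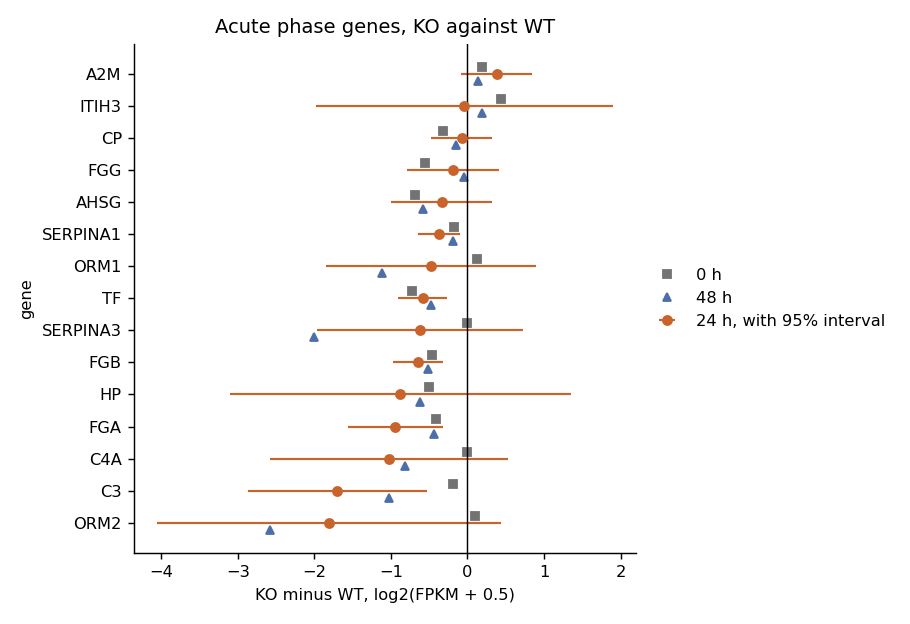
KO minus WT difference of the 15 acute phase genes tested, on the log2(FPKM + 0.5) scale, with the 95% interval at 24 h (orange circles) and the differences at 0 h (grey squares) and 48 h (blue triangles). At 24 h 14 of the 15 points lie left of zero, and the intervals of C3, FGA, FGB, TF and SERPINA1 do not reach zero.

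Hepatocyte identity genes, a list that shares FGB, FGA, TF, SERPINA1 and APOA1 with the other liver lists, were below zero in 20 of 29 cases, none called, with a median of -0.20. The summed FPKM of this list was 1493 to 1819 in the WT libraries and 1223 to 1472 in the KO libraries, without overlap. In bulk RNA a lower level per cell and fewer expressing cells cannot be told apart. Such sums were also apart for the acute phase list (788.8 to 968.1 in WT, 572.3 to 694.5 in KO), which shares members. For EGF receptor ligands and receptors they were apart with KO higher (59.8 to 83.2 in WT, 88.2 to 115.6 in KO). AFP differed by -0.01 (95% interval -0.38 to 0.37). Lipoprotein genes were below zero in 16 of 22 cases, with a median of -0.37, which was 0.07 at 0 h and -0.16 at 48 h. Beside APOA1, the second HDL protein APOA2 was 160.2, 177, 193 and 149 FPKM in WT and 92.96, 172, 199.7 and 144 in KO, with 1 low KO library and a difference of -0.20 (-0.62 to 0.21). MTTP and APOC1 were chosen after their values were seen, since all 4 KO values lay below WT. MTTP, which loads lipid on apolipoprotein B, was 8.398, 16.8, 6.46 and 6.61 FPKM in WT and 5.01, 5.62, 3.65 and 1.86 in KO (limma adjusted p = 0.94). APOC1, a small apolipoprotein, was 69.8, 49.4, 49.8 and 45.2 FPKM in WT and 41.6, 43.6, 28.6 and 18.6 in KO (adjusted p = 0.99). P4HB, the disulfide isomerase that pairs with MTTP in the lipid transfer complex, was 144 ± 16.2 FPKM in WT and 145 ± 15.8 in KO, a difference of 0.01.

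Genes of monoacylglycerol and endocannabinoid turnover, the pathway of ABHD6 itself, showed no common direction. Of 19 tested 8 were above and 11 below zero, none called, with a median of -0.26 and a typical 95% interval of 1.497 to either side of the estimate. That median was -0.0002 without KO replicate 2, -0.0005 without WT replicate 0 and -0.64 without WT replicate 1. ABHD12, which also hydrolyses 2-arachidonoylglycerol and lysophosphatidylserine, was 50.3, 39.4, 68.8 and 45.2 FPKM in WT and 79.1, 32.1, 36.6 and 73.9 in KO, a wide spread in KO, and differed by 0.04 (-0.86 to 0.94). NAPEPLD, which releases N-acylethanolamines, was 48.6, 42.1, 43.2 and 48.6 FPKM in WT and 48.6, 46.5, 46.8 and 41.8 in KO, with overlapping and narrow groups (0.01, -0.37 to 0.39). MGLL, the main monoacylglycerol lipase of most tissues and named here after its values were seen, was 4.69, 2.11, 1.44 and 1.32 FPKM in WT and 0, 0.478, 1.36 and 0.422 in KO, overlapping, with a difference of -1.46 (95% interval -2.79 to -0.13, limma adjusted p = 0.92). Its difference was 1.26 at 0 h, of the other sign, at these few fragments.

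For triglyceride synthesis and lipid droplets 15 of 25 members were above zero and the median was 0.16, but it was -0.02 without KO replicate 2, 0.41 without KO replicate 0 and 0.40 without WT replicate 1. The droplet protein CIDEB was 300.2 ± 30.2 FPKM in WT and 274 ± 24.6 in KO (-0.13, 95% interval -0.39 to 0.13), and GPAT4, which starts glycerolipid synthesis, was 24.01 ± 7.02 FPKM in WT and 34.6 ± 8.21 in KO (0.53, -0.18 to 1.25). Of 18 PPAR alpha targets 9 were above and 9 below zero, with a median of -0.03. Among 21 genes of mitochondrial beta oxidation 13 were above and 8 below, with a median of 0.13, and ETFDH, which passes electrons from acyl-CoA dehydrogenases to ubiquinone, was 117 ± 13.6 FPKM in WT and 137 ± 7.45 in KO (0.23, -0.11 to 0.58). None of these members was called.

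For fatty acid activation and transport 11 of 17 were below zero (median -0.17). The liver fatty acid binding protein FABP1 was 600.1, 418, 426 and 357 FPKM in WT and 306, 383, 439 and 284 in KO, overlapping, with a difference of -0.34 ± 0.19 (limma adjusted p = 0.94). It had differed by -0.86 before treatment (adjusted p = 0.086) and differed by -0.63 after 48 h (adjusted p = 0.39). The acyl-CoA binding protein DBI was 384 ± 66.6 FPKM in WT and 314 ± 74.5 in KO (-0.31, -0.64 to 0.03). Fatty acid synthesis and desaturation had 13 of 22 below zero (median -0.08), and the stearoyl-CoA desaturase SCD, which turns palmitate-derived stearate into oleate, was 169.8, 137, 126 and 141 FPKM in WT and 119, 137, 128 and 134 in KO (-0.14, -0.45 to 0.17).

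Cholesterol synthesis and uptake was balanced, with 13 of 27 above and 14 below zero and a median of -0.03. Its 2 most abundant enzymes, CYP51A1 and IDI1, differed by -0.09 and 0.07. Phospholipid and acyl chain remodelling genes were below zero in 16 of 26 cases (median -0.18). LPCAT3, which puts polyunsaturated chains on lysophospholipids, was 385 ± 50.5 FPKM in WT and 432 ± 30.4 in KO (0.17, -0.09 to 0.43). Choline kinase CHKA was 118, 97.5, 114 and 113 FPKM in WT and 96.9, 93.8, 85.9 and 96.03 in KO, with all 4 KO libraries lower and a difference of -0.25 (adjusted p = 0.99). Sphingolipid genes were above zero in 13 and below in 15 of 28 cases, with a median of -0.02. ORMDL2, which restrains the first enzyme of ceramide synthesis, was 368 ± 25.5 FPKM in WT and 360.5 ± 31.8 in KO (-0.03, -0.31 to 0.25). No member of these 3 lists was called.

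Of 32 ER chaperone and degradation genes 22 were above and 10 below zero, none called, with a median of 0.24. With each 24 h library left out in turn this median lay between 0.105 and 0.31. The median was -0.13 at 0 h and 0.17 at 48 h. The ER paralog of HSP90, HSP90B1, was 302, 321, 509 and 478 FPKM in WT and 504, 418, 577 and 564 in KO, with 2 WT libraries in the KO range and a difference of 0.38 ± 0.18 (limma adjusted p = 0.94). Calreticulin (CALR) was 451 ± 63.9 FPKM in WT and 479 ± 47.7 in KO (0.09, -0.23 to 0.42). The list of ATF4 targets, which answer to amino acid lack and ER stress, was balanced, with 15 above and 16 below zero of 31 and a median of -0.03. ATF4 itself was 93.8, 74.8, 88.6 and 74.6 FPKM in WT and 86.4, 75.1, 97.4 and 92.4 in KO (0.08, -0.39 to 0.55), while the alanyl-tRNA synthetase AARS was 86.4, 119, 146 and 122 FPKM in WT and 181, 168, 189 and 137 in KO, with WT replicate 2 above the lowest KO library and a difference of 0.52 ± 0.20 (adjusted p = 0.88).

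NF-kB and chemokine genes were below zero in 14 of 22 cases (median -0.33). The chemokine CCL20 was 37.3, 24.97, 33.8 and 20.8 FPKM in WT and 26.9, 33.7, 48.4 and 41.1 in KO, overlapping (0.36, -0.39 to 1.11), and the mitochondrial superoxide dismutase SOD2 was 182 ± 44.99 FPKM in WT and 213 ± 34.8 in KO (0.24). Interferon response genes were above zero in 12 of 19 cases, with a median of 0.39 that ranged from -0.11 to 0.77 over the alternative fits. Of 32 genes in that list 13 lay below the floor, and 4 of those tested were listed at 0 in 1 whole 24 h group.

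Immediate early genes, which cells switch on within minutes of a stimulus, had the highest median of the lists described. Of 23 tested 18 were above and 5 below zero, none called, with a median of 0.51, which was 0.23 at 0 h and 0.79 at 48 h. Their libraries spread widely within each genotype. JUND was 114, 20.04, 18.7 and 8.33 FPKM in WT and 62.98, 29.2, 26.4 and 88.7 in KO, and KLF2 was 15.2, 4.002, 38.1 and 0 FPKM in WT and 29.9, 37.9, 6.77 and 7.45 in KO, with 95% intervals of -0.62 to 2.37 and -0.50 to 3.32. Of the 10 EGF receptor ligands and receptors 8 were above zero, with a median of 0.24. The ligand amphiregulin (AREG) was 15.8, 18.4, 28.5 and 31.7 FPKM in WT and 35.2, 19.9, 38.8 and 42.7 in KO (0.53, -0.81 to 1.87), and the receptor ERBB2 was 3.396, 0, 11.5 and 16.3 FPKM in WT and 16.4, 10.9, 16.9 and 15.1 in KO (1.77 ± 0.84 SE, limma adjusted p = 0.94).

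Apoptosis genes split into 14 above and 12 below zero of 26 (median 0.05), and cytochrome c (CYCS) was 96.4 ± 20.9 FPKM in WT and 79.7 ± 24.8 in KO (-0.29, -0.78 to 0.19). Lysosome and autophagy genes split evenly, 17 and 17 of 34 (median 0.02). ATG7, the activating enzyme of autophagosome conjugation, was 213 ± 15.4 FPKM in WT and 199.8 ± 14.2 in KO (-0.09, -0.34 to 0.16), and the cargo receptor SQSTM1 was 165 ± 20.7 FPKM in WT and 153 ± 4.39 in KO (-0.10, -0.47 to 0.27). Cathepsin D (CTSD), named after its values were seen, was 29.8, 60.1, 22.2 and 32.1 FPKM in WT and 12.5, 15.3, 14.5 and 9.22 in KO, with all KO values lower (limma adjusted p = 0.47). Of 16 iron handling genes 9 were below zero (median -0.09), TF among them, and the ferritin heavy chain FTH1 was 938 ± 195 FPKM in WT and 804 ± 91.1 in KO (-0.20).

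Mitochondrially encoded genes took 12.3% ± 0.91 (SD, n = 4) of the summed FPKM in WT and 11.5% ± 0.96 in KO (exact permutation p = 0.229, two-sided). Of 13 tested 10 were below and 2 above zero, with a median of -0.07 and a typical 95% interval of 0.31 to either side, the narrowest of the lists. MT-ND6, a complex I subunit, was 37320 ± 6094 FPKM in WT and 33910 ± 3295 in KO (-0.13, -0.44 to 0.18). Nuclear-encoded subunits of the respiratory chain were below zero in 21 of 35 cases (median -0.14), with NDUFA1 at 0.28 and ATP5PB at 0.14. Ribosomal protein genes were below zero in 21 of 36 (median -0.02). RPS14 was 1193, 1068, 1160 and 999.6 FPKM in WT and 1243, 1186, 1454 and 1211 in KO, with KO replicate 1 below WT replicate 0 (0.20, -0.06 to 0.47), and RPL7 differed by -0.17. No member of these 3 lists was called.

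**Figure D4:**
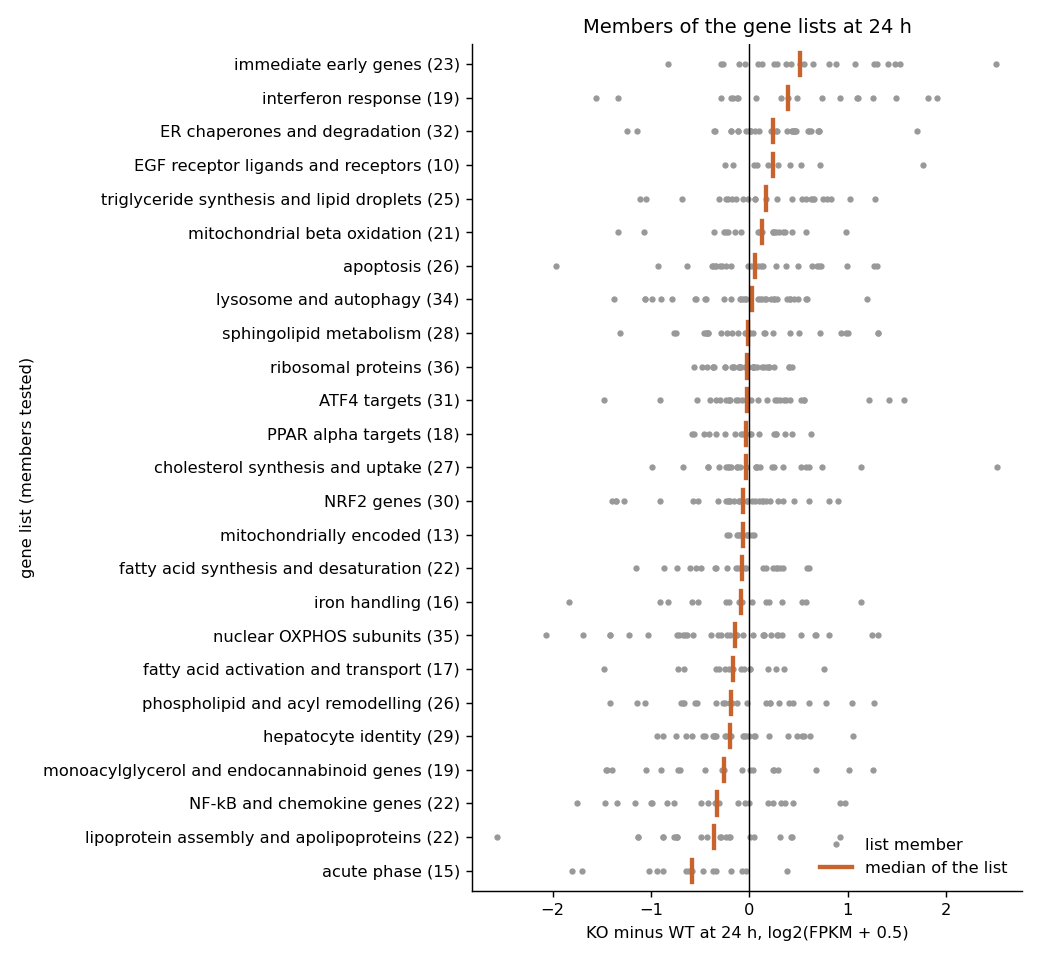
KO minus WT difference at 24 h, on the log2(FPKM + 0.5) scale, of every tested member (grey points) of the 25 lists described, with the list median as an orange bar and the number of members tested in brackets. Medians run from 0.51 for immediate early genes to -0.59 for acute phase genes, and no point is a called gene.

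The genotype difference was set beside that at the other 2 times. At 0 h 17 genes were called (0.0985% of the genes tested), 4 higher and 13 lower in KO, and at 48 h 11 (0.0638%), 4 higher and 7 lower. AC092115.2 was called at 0 h and at 24 h. SCAMP3 was called at 24 h and not at the other times, but the change of its difference was not called either (limma adjusted p = 0.31 against 0 h and 0.57 against 48 h). Without WT replicate 3 of 24 h, the library in which SCAMP3 was above 0, both changes were called. Over the same 3341 well expressed genes the KO minus WT differences at 24 h had a Pearson r of -0.002 with those at 0 h and 0.038 with those at 48 h, a description across genes that are not independent. The sign was shared by 51.9% of these genes with 0 h and by 54.7% with 48 h. Of the 25 list medians 14 had the same sign at 0 h and 16 at 48 h.

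No gene was called for a change of its genotype difference between 0 h and 24 h (0% of the genes tested, by limma, with 950 at an unadjusted p under 0.05). Between 24 h and 48 h the difference changed for 3 genes (0.0174%), all mitochondrially encoded: MT-CO3 of complex IV, and MT-ATP6 and MT-ATP8 of the ATP synthase. At 24 h the genotypes overlapped, with MT-CO3 at 4688, 4795, 4765 and 5370 FPKM in WT and 5197, 4692, 4103 and 4533 in KO. At 48 h MT-CO3 was listed at 0 in all 4 WT libraries and was 4903, 5169, 4386 and 3955 FPKM in KO. At 24 h MT-ATP6 was 5100 ± 938 FPKM in WT and 4669 ± 676 in KO, and MT-ATP8, whose reading frame overlaps that of MT-ATP6, was 32650 ± 7125 FPKM in WT and 30580 ± 6296 in KO. Both were likewise listed at 0 in the 4 WT libraries of 48 h and not in KO. A listed 0 for genes that every cell uses can be a failed estimate, so no fold is given and the 3 calls rest on the 48 h values.

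Values of 0 across a whole group also occurred at 24 h. Of the genes listed at 0 in all 4 libraries of one genotype and at 5 FPKM or more in all 4 of the other, 4 were at 0 in WT and 3 at 0 in KO, against 2 and 1 at 0 h and 4 and 3 at 48 h. The 7 at 24 h were antisense, pseudogene or long intergenic RNA rows with 192 to 1305 bp of exon. None was called in the fit over all 24 libraries. The fit of only the 8 libraries called AC096669.1, ODF2-AS1, AL512791.1, AC004477.2 and AL353898.2 among them. In the fit over all 24 libraries the antisense row AC004477.2, of 192 bp within NFE2L1, came nearest. It was 221, 95.1, 82.7 and 188 FPKM in KO and 0 in WT (limma adjusted p = 0.053). In basal medium it was 182, 462, 155 and 258 FPKM in WT and 139, 272, 175 and 433 in KO, above 0 in all 8 libraries and overlapping.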

How the data were processed

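RNA of Huh7 cells was prepared with the RNeasy Plus Mini kit, converted with a directional TruSeq mRNA kit and read on a NovaSeq, per the labels' protocols. The authors deposited 1 table of FPKM values with 58024 Ensembl gene IDs and 24 library columns, and the submitters' processing notes list the build GRCh38 and the tools Cuffdiff, Cufflinks and STAR, with no version and no strand setting. Times came from the sample titles, since the protocol names no harvest after day 1. Columns were matched to samples by title. GENCODE release 29 named 57375 IDs (99.0%), and 45 rows of chromosome Y copies, all at 0, were left out.

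Values were fitted as log2(FPKM + 0.5) with limma 3.58.1 (R 4.3.3), in 1 fit of 6 group means with a variance trend (18 residual degrees of freedom, prior 4.63), for 17252 genes averaging 0.5 FPKM or more across all 24 libraries (40727 averaged less). P-values were adjusted by Benjamini-Hochberg over the genes tested. Fragments per library were estimated from the smallest steps of FPKM on genes of at least 1500 bp of exon with a single transcript. Library values were compared by exact permutation tests, 7 in all, adjusted together. Genes considered for naming, not all of them printed, were ABHD6, the called genes, the 12 smallest p among named genes at 5 FPKM or more, the 2 members of highest mean at 24 h of each list described, all acute phase genes tested, the opposite-strand partners of leading genes and the called mitochondrial genes. MTTP, APOC1, MGLL, CTSD and AC004477.2 were added after their values were seen. The comparison, the lists (36, of which 25 are described) and the tests were chosen with earlier results of these data known. The fit was also run on simulated data with 1 fixed spread for all genes and no failed estimates. That run is not used as support here. Alternatives were a pseudocount of 0.1 or 1, a filter at 2 FPKM or none, scaling by median of ratios or quantiles, array weights, robust variance, no variance trend, a block for the replicate number, genes without an opposite-strand exon, each library left out, and the 8 libraries alone. The fit without genes listed at 0 in a whole 24 h group was added after seeing the data. Tables and plots used matplotlib 3.10.9, scipy 1.17.1, pandas 2.3.3 and numpy 2.4.6 under Python 3.11.15.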

Additional observations from a re-analysis of the deposited data

Results flagged for a closer look

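Single libraries stood far from the other 3 of their group in 13 of 162 groups of 4 examined (8.02%), by Dixon's test at its 95% level. Chance alone flags about 1 in 20 groups of continuous values. Where 3 libraries are listed at 0 and 1 is not, the test flags the group whatever the value. This held for SCAMP3, SERPINA3 and C4A in WT and for SPC24 and ITIH3 in KO. The 8.02% can therefore not be set against 1 in 20. In WT at 24 h these were SCAMP3 in replicate 3 (2.28 FPKM), SPC24 in replicate 1 (19.9), DRAM2 in replicate 0 (16.7), JUND in replicate 0 (114), MT-CO3 in replicate 3 (5370), SERPINA3 in replicate 1 (2.28) and C4A in replicate 2 (8.09). In KO at 24 h they were SPC24 in replicate 0 (2.99), FGB in replicate 2 (79.6), CYP51A1 in replicate 2 (189), C3 in replicate 2 (35.5), ITIH3 in replicate 0 (4.72) and HP in replicate 2 (3.27). KO replicate 2 held the high value of FGB and of C3, both secreted liver proteins, and the other 3 KO libraries of each lay below all 4 WT libraries.

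The genotype difference at 24 h differed from that at 48 h for MT-ATP8 (limma adjusted p = 5.8e-21), MT-ATP6 (adjusted p = 1.02e-19) and MT-CO3 (adjusted p = 6.07e-25), which in the 4 WT libraries of 48 h were each listed at 0.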

How the results depend on the processing

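The count of genes called at 24 h, 2 in the report, was 1 at a pseudocount of 1, 5 after median-of-ratios scaling and 5 after quantile normalization, both of the reported genes among those 5. The others in both were AC016550.1, AC026333.3 and AC004477.2. AC016550.1 was also called at a pseudocount of 0.1, with no filter, with no variance trend and in the fit of only the 8 libraries. The count was 1 (SCAMP3) over the genes with no opposite-strand exon, where AC092115.2 is not tested, and 13 in a fit of only the 8 libraries, with neither gene. With the replicate number as a block (replicate block) it was 0, with adjusted p of 0.067 for AC092115.2 and 0.092 for SCAMP3. The numbers do not pair the libraries, since the deviations of same-numbered WT and KO libraries at 24 h correlated at -0.086 to 0.070, and 1 of 4 numbers correlated best with itself. Leaving out each library in turn gave 0 to 2 genes, and 0 without WT replicate 0 or 2 or KO replicate 0, 2 or 3. For the change of the genotype difference from 0 h to 24 h, with 0 genes in the report, leaving out each library gave 0 to 2, with SCAMP3 called without WT 24 h replicate 3. From 24 h to 48 h, with 3 genes, it was 5 at a pseudocount of 0.1 and 3 to 5 with each library left out, and MT-CO3, MT-ATP6 and MT-ATP8 were called in every one of these fits. The causes of these shifts were not tested. Of 263 refits of the 13 leading genes none reversed a direction, which says little. For each of these genes the 4 KO values at 24 h all lay on one side of the 4 WT values. Leaving out a library could therefore not turn the sign. Only AC092115.2 and SCAMP3 had a call to lose, and 19 of their refits lost it. AC092115.2 stayed called in 11 of 20 alternatives and SCAMP3 in 11 of 21. Among the list medians 523 of 525 stayed within the spread between libraries, but that spread was wide. It held the monoacylglycerol and endocannabinoid median over its whole range, from -0.64 to -0.0002. The sign turned or the value moved by over 1.5 times for 20 of 25 medians when 1 library was left out. The acute phase median ranged from -0.62 to -0.47, and that of immediate early genes from 0.37 to 0.80. The interferon response median ranged from -0.11 to 0.77 and so changed sign. The fragments per library, 558048 to 632362, limit the test, most of all for genes under 20 FPKM, and no alternative adds fragments.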
